A study of Mus musculus with 24 samples.

Results

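Effects of *H19* RNA interference in brown adipose tissue (BAT) cells were compared before and after induction of differentiation, as the day by siRNA interaction (siH19 d3 minus siH19 d0) minus (siCtrl d3 minus siCtrl d0) on log2(FPKM + 1). FPKM is a level per length of transcript, corrected for the number of fragments sequenced in a library. The interaction equals the siH19 effect at d3 minus the siH19 effect at d0, and it tells effects present before induction from those that arise during it. It rests on 12 of the 24 libraries of the series, 3 in each of 4 groups (siCtrl d0, siH19 d0, siCtrl d3, siH19 d3). Of 49452 genes listed, 13575 genes reached an FPKM of 1 in 3 or more of these 12 libraries and were tested. All cells were primary precursors from the stromal-vascular fraction of BAT of young male C57BL/6 mice without genetic modification, and tissue could be pooled over mice to obtain enough cells. They were nucleofected with siCtrl, a non-targeting siRNA that the labels call siKO, or with siH19, and by the study's methods used 48 to 72 h later. This 1 range is given for both days, so whether the time since nucleofection differed between d0 and d3 is not settled. Any such difference cannot be told apart from induction. Cells at d0 had received no induction medium, and cells at d3 had received induction medium for 48 h and then growth medium with triiodothyronine. The other 12 libraries hold the same 4 combinations of siRNA and day in visceral (epididymal) white adipose tissue (vWAT) cells and serve here as a comparison only. By the study's methods both media differed between depots. The induction medium of vWAT cells held rosiglitazone and isobutylmethylxanthine, and that of BAT cells indomethacin and triiodothyronine. The later medium of vWAT cells held rosiglitazone instead of triiodothyronine. The labels do not say whether the 3 libraries of a group come from separate cultures or animals, so all p-values measure the spread between these libraries.

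Precursor cells turn into adipocytes when the transcription factors PPARG and C/EBPA switch on genes for lipid storage, and brown adipocytes add a thermogenic programme with UCP1, the protein that uncouples mitochondrial respiration. During this change the genes of the precursor state fall, such as those for the contractile cytoskeleton and the extracellular matrix. *H19* is a long non-coding RNA of an imprinted cluster that is transcribed from the maternal allele and is also the precursor of the microRNA miR-675.

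The knockdown reagent is shown because each result depends on it. The study lists several siRNAs against *H19*, the labels carry the number 3 after siH19, and the study's methods name the first, so that which of the pair printed here was used is not settled. The antisense (guide) strands are given 5′ to 3′ with the seed, bases 2 to 8, in capitals.
siH19: uCUUGAUUcagaacgagacgg
siH19#3: uGGUGUUCaagaaggcuggat
The site of siH19 lies in exon 4 of the *H19* transcript H19-202 (GRCm38, minus strand, chr7:142576255-142576273). The site of siH19#3 spans the junction of exon 2 (chr7:142576613-142576624) and exon 3 (chr7:142576524-142576530). Both sites are present in 5 of the 7 annotated transcripts of the gene, and their seeds differ.

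*H19* (ENSMUSG00000000031, chr7:142575529-142578143, minus strand) was lower with siH19 on both days, and the difference was smaller at d3. At d0 the siCtrl libraries were listed at 108, 160.4 and 122 FPKM and the siH19 libraries at 2.82, 5.2 and 5.05 FPKM. At d3 the siCtrl libraries were listed at 99.7, 86.4 and 83.2 FPKM and the siH19 libraries at 12, 12.1 and 16.9 FPKM. Every siH19 library lay below every siCtrl library of its day, so the targeted gene matched the labels of all 12 libraries. The mean with siH19 was 3.35% of siCtrl at d0 and 15.3% at d3. The log2 difference was -4.63 at d0 and -2.64 at d3, an interaction of 1.99 (standard error 0.29, adjusted p = 0.0028). With siCtrl the level was 130.3 ± 27.1 FPKM (SD, n = 3) at d0 and 89.8 ± 8.76 FPKM (SD, n = 3) at d3. All effects at d3 were thus measured at a higher remaining *H19* level than those at d0.

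**Figure D1:**
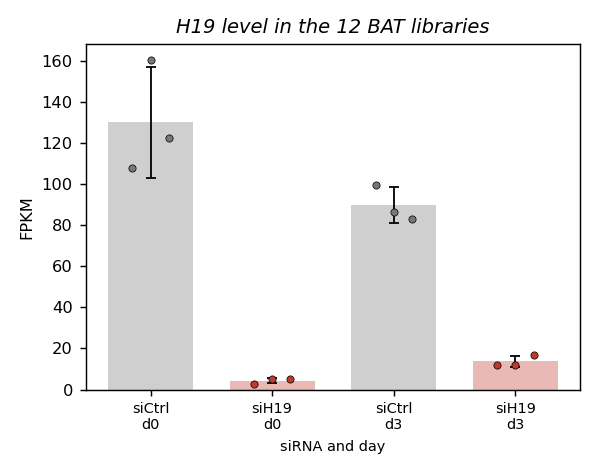
FPKM of *H19* (y axis, linear from 0) in the 12 BAT libraries by siRNA and day (x axis). Points are libraries, bars are means and error bars are SD (n = 3), and the siH19 points sit at 2.82, 5.2 and 5.05 at d0 and at 12, 12.1 and 16.9 at d3.

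The 12 libraries had a relative depth of 0.84 to 1.00, read from the steps between low values and set to 1 for the deepest, while the number of fragments is unknown. Between 12311 and 12657 genes per library reached an FPKM of 1. The first principal component, which separates the days, held 79.0% of the variance. The brown adipocyte markers *Ucp1* and *Cidea* did not exceed 0.294 FPKM in any d0 library, and at d3 both were present in every library. The precursor marker *Pdgfra*, a growth factor receptor, was listed at 47.7, 51.9 and 50.8 FPKM in siCtrl at d0 and at 13.3, 12.7 and 14.7 FPKM at d3. Exons of *Lipe*, *Cebpa*, *Acsl1*, *Gpd1*, *Plin4*, *Elovl3*, *Acss2*, *Cyp51*, *Ctgf*, *Thbs1*, *Tgfb3*, *Hmga2*, *Ccnd1*, *Nnat*, *Mest*, *Cdkn1c*, *Pdgfra* and *Manf* overlap those of a gene on the other strand, and exons of *Trf* and *Manf* those of a gene on the same strand. Whether the counting used strand is not given in the sources used here, so these levels may hold fragments of the other gene.

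Across the 13575 genes, the interaction was called for 876 genes (6.45%) when a difference of 1.3-fold or more and a Benjamini-Hochberg adjusted p below 0.05 were both required. It was positive for 764 genes (5.63%) and negative for 112 (0.825%), and 3263 genes had an unadjusted p under 0.05. A positive value means that siH19 libraries stood higher, relative to siCtrl, at d3 than at d0, which holds both for a gene that became high at d3 and for one that was low at d0 only. This balance depended on the scaling of the libraries, with 427 positive and 172 negative genes after median-ratio scaling and 448 and 177 after quantile normalization. The siH19 effect itself was called for 402 genes (2.96%) at d0, 105 higher (0.773%) and 297 lower (2.19%). At d3 it was called for 1212 genes (8.93%), 942 higher (6.94%) and 270 lower (1.99%). Quantile normalization gave 150 higher and 241 lower genes at d0, and median-ratio scaling 685 and 459 at d3. Without replicate 3 of siCtrl d0, 210 genes were called at d0, and without replicate 1 of siH19 d0, 261. The change from d0 to d3 was called for 8674 genes (63.9%) with siCtrl and for 8134 genes (59.9%) with siH19. The median of all genes tested was 0.09 for the interaction, -0.03 for the effect at d0 and 0.05 for the effect at d3.

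The calls divide the genes by timing. Of the called interactions, 483 genes arose, that is, they had a called effect at d3 and none at d0, 419 of them higher and 64 lower with siH19. A missed call at d0 does not show that an effect was absent before induction. A further 129 genes faded, with a called effect at d0 and none at d3, of which 110 had been lower with siH19 and 19 higher. For 247 genes neither day was called alone and the opposing trends gave the interaction (220 positive, 27 negative). Another 9 genes grew in 1 direction, 3 shrank and 5 reversed between called effects of opposite sign. Carried over from d0 to d3 in 1 direction without a called interaction were 73 genes, 38 lower and 35 higher. A call on 1 day without a called interaction was found for 639 genes at d3 and for 183 at d0, and for these the days cannot be told apart. Of all genes tested, 3.56% arose, 0.95% faded, 1.82% had opposing trends and 0.538% were carried over. These classes are built from the same libraries as the interaction and were not tested.

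**Figure D2:**
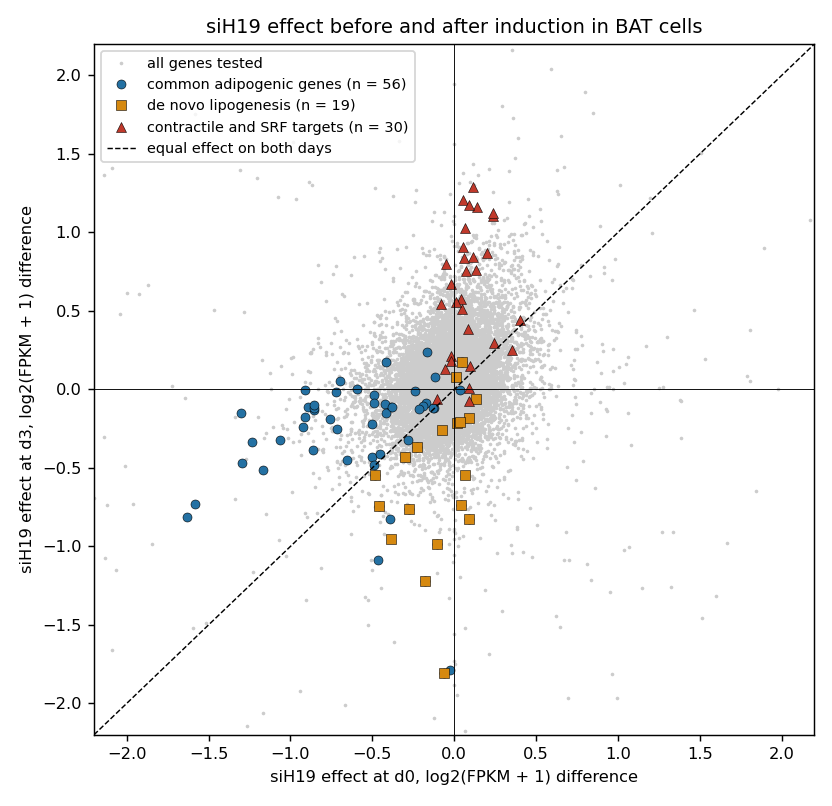
The siH19 effect at d0 (x axis) against that at d3 (y axis), both as differences on log2(FPKM + 1), for each of the 13575 genes tested (grey), with 3 gene lists in colour. 87 genes, *H19* among them, lie outside the plotted range of -2.2 to 2.2. Common adipogenic genes spread to the left, genes of de novo lipogenesis downwards and contractile genes upwards, away from the dashed line of equal effects.

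Many general adipocyte genes were lower with siH19 before induction, and for part of them the difference had faded at d3. Of 56 common adipogenic genes tested, 32 were lower and 0 higher at d0, with a median of -0.46, whereas 2.19% of all genes were lower and their median was -0.03. At d3 19 were lower and 0 higher, with a median of -0.20, and 50 of the 56 point estimates were still negative (1.99% of all genes were lower). The interaction was called positive for 19 genes and negative for 6, with a median of 0.27, against 5.63% and 0.825% of all genes and a median of 0.09. By timing, 16 of the 56 faded, 2 shrank, 8 were carried over, 5 arose, 1 grew and 1 had opposing trends. Of all genes, 0.95% faded, 0.538% were carried over and 3.56% arose. The positive count fell to 10 after median-ratio scaling and on leaving out replicate 3 of siCtrl d0 or replicate 2 of siCtrl d3, while the median stayed positive under every alternative. The list rose during differentiation in both arms, by a median of 3.14 with siCtrl and 3.37 with siH19. In these bulk libraries fewer cells of a type and less RNA per cell cannot be told apart.

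*Adipoq* encodes the adipokine adiponectin. At d0 it was listed at 184, 213 and 222 FPKM in siCtrl and at 63.5, 103 and 86.8 FPKM in siH19. At d3 the values were 1685, 1805 and 1791 FPKM in siCtrl and 1475, 1623 and 1654 FPKM in siH19. The siH19 libraries lay below all siCtrl libraries on both days, but the gap of -1.30 on the log2 scale at d0 had become -0.15 (adjusted p = 0.51) at d3, an interaction of 1.15 (standard error 0.20, adjusted p = 0.0062). The adipogenic transcription factor *Pparg* went from 45 ± 2.14 FPKM in siCtrl and 29.4 ± 0.19 FPKM in siH19 at d0 (SD, n = 3) to overlapping libraries at d3, 123, 126 and 124 against 114, 131 and 129 FPKM. Its interaction was 0.60 (standard error 0.08, adjusted p = 0.0014). *Cebpa*, which acts together with *Pparg*, was listed at 147, 149 and 156 FPKM in siCtrl and 73.5, 90.4 and 85.6 FPKM in siH19 at d0, and at 659, 677 and 632 FPKM in siCtrl and 595, 574 and 626 FPKM in siH19 at d3. Both factors were lower in every siH19 library at d0, and at d3 neither effect was called (0.00 and -0.13).

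Several genes for fat storage and release faded as well, within lists of mixed timing. Of 21 lipid droplet and lipolysis genes tested, 4 faded, 1 shrank, 2 were carried over and 2 arose lower. Of 14 triglyceride synthesis genes, 1 faded, 1 shrank, 2 were carried over and 1 grew. Of all genes, 0.95% faded, 0.0221% shrank, 0.538% were carried over, 3.56% arose and 0.0663% grew. *Lipe*, hormone-sensitive lipase, was listed at 37.1, 36.5 and 40.3 FPKM in siCtrl and at 14.4, 19.6 and 19.3 FPKM in siH19 at d0. At d3 its values were 780.3, 807 and 765 FPKM in siCtrl and 622, 623 and 638 FPKM in siH19, so that a difference of -1.07 became -0.32 on the log2 scale, which is under 1.3-fold. The fatty acid carrier *Fabp4* had an effect of -0.89 at d0 and -0.11 at d3, and *Acsl1*, which activates long-chain fatty acids, of -1.23 and -0.34. Their interactions were 0.78 (adjusted p = 0.0062) and 0.90 (adjusted p = 0.0028). *Gpd1*, which supplies glycerol 3-phosphate, and *Pnpla2*, the first lipase of triglyceride breakdown, shrank without closing. *Gpd1* went from -1.30 to -0.47 and *Pnpla2* from -0.86 to -0.39, both still called at d3. The droplet coat genes *Plin1* (-0.91 at d0, -0.18 at d3), *Plin4* (-0.86 and -0.12) and the acyltransferase gene *Gpam* (-0.69 and 0.05) also faded. *Plin5*, another droplet coat gene, arose lower instead, from at most 0.21 FPKM in any library at d0 to 32.6, 35.5 and 36.2 FPKM in siCtrl and 20.4, 21.6 and 20.7 FPKM in siH19 at d3 (interaction -0.67, adjusted p = 0.0046, lost with a pseudocount of 0.1). The interaction calls of *Plin1*, *Plin4*, *Gpam* and *Pnpla2* were lost after median-ratio scaling and on leaving out some single libraries, among them replicate 3 of siCtrl d0. Secreted products of fat cells were among the faded genes as well, with interactions of 0.90 for *Retn* (resistin), 0.90 for *Trf* (transferrin) and 0.70 for *Agt* (angiotensinogen).

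The 19 genes that faded after being higher with siH19 at d0 included *Il11*, a cytokine of the interleukin-6 family. *Il11* was listed at 14.1, 13.9 and 13.6 FPKM in siCtrl and at 34.3, 29.5 and 26.2 FPKM in siH19 at d0, and at most at 1.12 FPKM in any library at d3. Its interaction of -0.89 was close to the threshold (adjusted p = 0.041) and was lost with a pseudocount of 0.1, under the replicate block and on leaving out any 1 of 9 libraries. The glutathione transferases *Gsta4* and *Gsta3* were higher at d0 (0.73 and 0.40) and not called at d3 (0.07 and -0.09), with interactions of -0.66 and -0.49. These are targets of the oxidative stress factor NRF2. The list of NRF2 targets had 2 positive and 3 negative calls among 33 genes tested, against 5.63% and 0.825% of all genes.

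Part of the genes that mark brown adipocytes were lower with siH19 at d3, among them *Ucp1*, the uncoupling protein of thermogenesis, and *Cidea*, both hardly expressed at d0. Others were already expressed then, and the summed FPKM of the list at d0 was 305 to 317 in siCtrl and 273 to 275 in siH19. Of 36 BAT markers tested, the interaction was called negative for 9, against 0.825% of all genes, and positive for 1 (4 without replicate 2 of siH19 d0, 3 without replicate 3 of siCtrl d3 and 2 without replicate 1 of siCtrl d0), with a median of -0.24. The effect was called lower for 4 at d0 (2 without replicate 1 or without replicate 2 of siCtrl d0) and for 13 at d3, against 2.19% and 1.99% of all genes, with medians of -0.10 and -0.37. *Cidea*, a lipid droplet protein of brown adipocytes, was listed at 14.2, 19.5 and 21.6 FPKM in siCtrl and 3.87, 4.48 and 3.63 FPKM in siH19 at d3. *Ucp1* was listed at 8.84, 11.2 and 16.3 FPKM in siCtrl and at 2, 2.93 and 3.63 FPKM in siH19 at d3. The ranges of siH19 and siCtrl did not meet at d3 for either gene, siH19 being lower, while at d0 the libraries overlapped next to 0. Their interactions were -1.96 (standard error 0.22, adjusted p = 0.00081) and -1.75 (standard error 0.28, adjusted p = 0.0044). Where a gene is next to 0 at d0, the added 1 holds its d0 effect near 0, so the interaction repeats the d3 effect. With a pseudocount of 0.1 the interaction was -2.04 for *Cidea* (adjusted p = 0.086) and -2.03 for *Ucp1* (adjusted p = 0.022), and 5 rather than 9 BAT markers were called negative.

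Other brown markers that arose lower were *Elovl3*, a fatty acid elongase, and *Cox8b*, a cytochrome oxidase subunit. *Elovl3* was listed at 431, 491 and 488 FPKM in siCtrl and 278, 292 and 306 FPKM in siH19 at d3 (interaction -0.70, adjusted p = 0.0045, lost with a pseudocount of 0.1). *Cox8b* had an interaction of -1.46 (adjusted p = 0.031), which was lost on leaving out any 1 of 7 libraries. *Fgf21*, a hormone released by activated brown fat, was listed at 0.465, 0.706 and 0.637 FPKM in siCtrl and 0.968, 1.19 and 1.12 FPKM in siH19 at d0, and at 6.1, 5.42 and 6.69 FPKM in siCtrl and 2.93, 3.4 and 3.79 FPKM in siH19 at d3. It thus stood slightly higher with siH19 at d0 (0.39, adjusted p = 0.062) and lower at d3 (-0.70, adjusted p = 0.0011), an interaction of -1.08 (adjusted p = 0.002). *Lhx8*, a transcription factor, was the 1 BAT marker with a positive interaction (0.91, adjusted p = 0.012). *Ppargc1a*, the coactivator of mitochondrial biogenesis, was lower at d3 (-0.81, adjusted p = 0.021), but its interaction of -0.37 was not called (adjusted p = 0.5). *Dio2*, the deiodinase that activates thyroid hormone, was listed at 34.4, 16.1 and 6.62 FPKM in siCtrl and 5.84, 21.3 and 32 FPKM in siH19 at d3, and this spread allows no statement on its interaction (0.08, 95% interval -1.76 to 1.93).

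De novo lipogenesis, the synthesis of fatty acids from citrate, had the lowest median interaction of the lists with at least 14 genes tested, and 6 of its genes arose lower. Of 19 genes tested, 7 had a negative interaction and 0 a positive one, against 0.825% and 5.63% of all genes, with a median of -0.27. The effect was called lower for 3 genes at d0 and for 11 at d3, against 2.19% and 1.99% of all genes. The median effect went from -0.06 to -0.54. By timing, 6 of the 19 arose, 1 grew and 2 were carried over, against 3.56%, 0.0663% and 0.538% of all genes. *Fasn*, fatty acid synthase, was listed at 38.5, 35.5 and 32.8 FPKM in siCtrl and 29.8, 35.4 and 29.1 FPKM in siH19 at d0. At d3 it was listed at 704, 708 and 683 FPKM in siCtrl and 326, 308 and 267 FPKM in siH19, so that an overlap at d0 became a full separation (interaction -1.04, standard error 0.13, adjusted p = 0.0011). *Acly*, which makes acetyl-CoA from citrate, went from 71.8 ± 1.97 to 153 ± 12.9 FPKM with siCtrl (SD, n = 3) and from 76.6 ± 4.15 to 85.8 ± 7.95 FPKM with siH19. The interaction was -0.92 (adjusted p = 0.00098) for *Acly* and -0.78 (adjusted p = 0.00067) for *Me1*, malic enzyme, which supplies NADPH. *Thrsp*, a regulator of lipogenesis, was listed at 411, 546 and 567 FPKM in siCtrl and at 128, 151 and 151 FPKM in siH19 at d3, after at most 0.41 FPKM in any library at d0. Its interaction of -1.74 (adjusted p = 0.00078) became -1.53 (adjusted p = 0.055) with a pseudocount of 0.1, a setting that left 4 of the 7 negative calls. *Scd1*, which desaturates fatty acids, and *Mlxipl*, the carbohydrate-responsive transcription factor ChREBP, were lower on both days without a called interaction (-0.49 and -0.54 for *Scd1* and -0.46 and -0.75 for *Mlxipl*). *Acss2*, which makes acetyl-CoA from acetate, was lower on both days and more so at d3 (-0.38 and -0.95, interaction -0.57, adjusted p = 0.021), a call lost with a pseudocount of 0.1.

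*Pck1*, the rate-limiting enzyme of glyceroneogenesis, changed its class with the pseudocount. It was listed at 0.485, 0.478 and 0.536 FPKM in siCtrl and 0.0983, 0.0765 and 0.0801 FPKM in siH19 at d0, and at 27.9, 30.7 and 33.2 FPKM in siCtrl and 12, 16.4 and 13.5 FPKM in siH19 at d3. On log2(FPKM + 1) the effect grew from -0.47 to -1.09 (interaction -0.62, adjusted p = 0.025), whereas with a pseudocount of 0.1 the interaction turned positive and was not called (0.56, adjusted p = 0.088). The siH19 libraries were below all siCtrl libraries on both days.

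Few mitochondrial genes had a called interaction, and their many small differences were mostly negative. Of 78 nuclear-encoded subunits of oxidative phosphorylation, 1 had a called interaction, which was negative, and the median was -0.13 against 0.09 for all genes. Point estimates were negative for 70 and positive for 8 of the 78. Fatty acid oxidation (36 genes, median -0.13, 1 positive and 1 negative calls) and the TCA cycle (31 genes, median -0.13, 0 and 1) were similar. Of all genes, 5.63% had a positive and 0.825% a negative interaction. After median-ratio scaling 5 TCA cycle genes were called negative and the median was -0.22, and after quantile normalization 2 were. At d3 alone, 10 of the 31 TCA cycle genes were lower, against 1.99% of all genes. This count was 13 after median-ratio scaling, 5 without replicate 2 of siCtrl d3 and 6 without replicate 1 of siH19 d3. The median effect of the subunits of oxidative phosphorylation was -0.09 at d0 and -0.22 at d3, against -0.03 and 0.05 for all genes. Their point estimates were negative for 66 of the 78 at d0 and for 77 at d3. Of these subunits 2 were called lower at d3, 13 after median-ratio scaling and 2 to 8 on leaving out 1 library. Of the 36 fatty acid oxidation genes 3 were called lower at d0 and 6 at d3. The count at d3 was 10 after median-ratio scaling and 4 to 6 on leaving out 1 library. The negative call of the TCA cycle was *Ogdh*, a subunit of oxoglutarate dehydrogenase, which was listed at 36.5, 37 and 36.9 FPKM in siCtrl and 36.6, 37.8 and 36.5 FPKM in siH19 at d0 and at 286, 296 and 280.3 FPKM in siCtrl and 211, 199.6 and 197 FPKM in siH19 at d3 (interaction -0.51, adjusted p = 0.00066). *Slc25a20*, which carries acylcarnitines into mitochondria, stood slightly above siCtrl at d0 (0.18) and below it at d3 (-0.27), and the interaction of -0.45 (adjusted p = 0.0014) was called although neither effect reached 1.3-fold. Mitochondrial ribosomal proteins (76 genes) had a median of -0.08 with 1 positive call, and glycolysis (23 genes) a median of -0.11 with 1 negative call. The 13 mitochondrially encoded mRNAs were not analysed here.

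**Figure D3:**
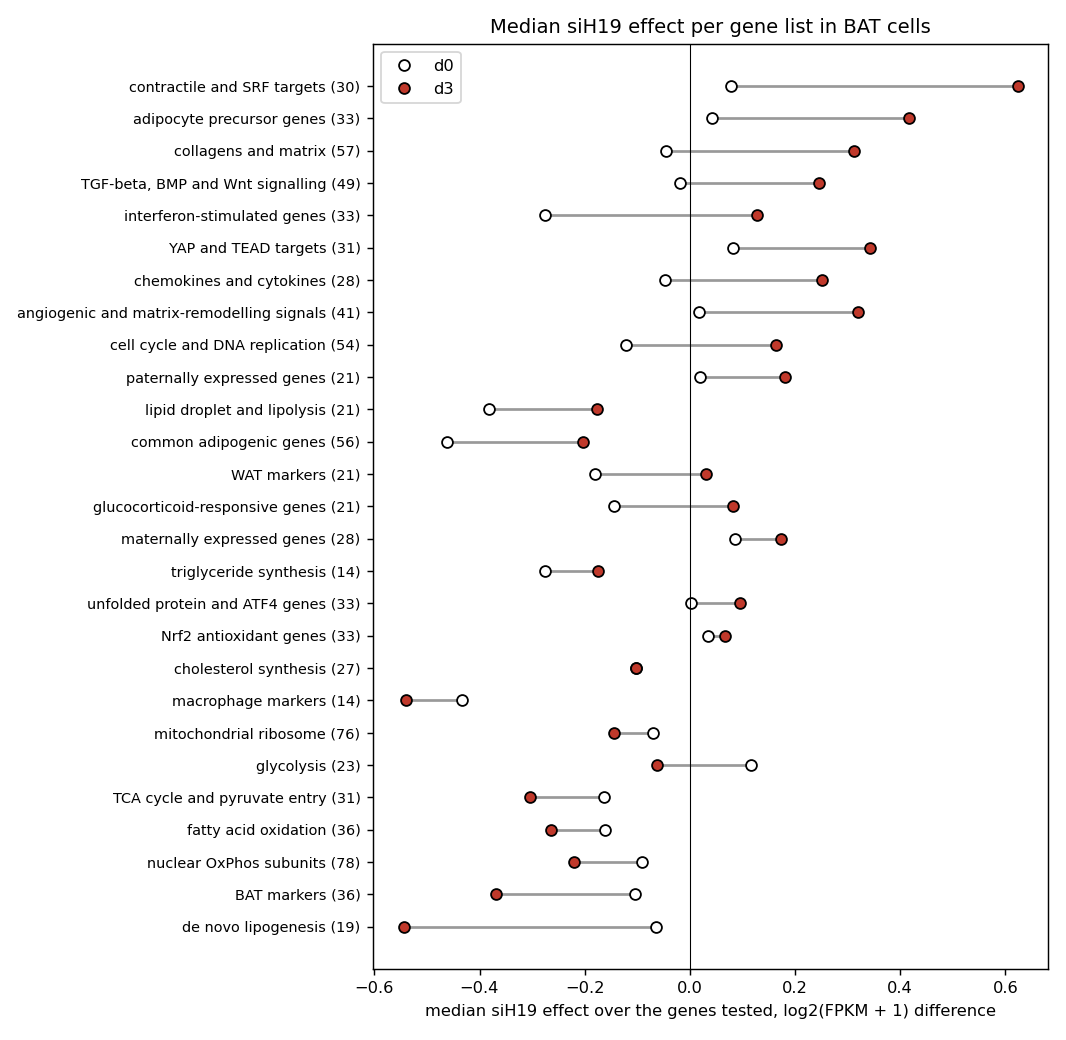
Median siH19 effect at d0 (open) and at d3 (filled) for each gene list with at least 14 genes tested in BAT cells, skeletal muscle markers left out (x axis, difference on log2(FPKM + 1), number of genes tested in parentheses), ordered by the median interaction. Contractile genes move from 0.08 to 0.62, de novo lipogenesis from -0.06 to -0.54 and common adipogenic genes from -0.46 to -0.20.

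Many genes of the actin and smooth muscle type cytoskeleton were called higher with siH19 at d3, and none was called at d0. Of 30 contractile genes and SRF (serum response factor) targets tested, 17 had a positive and 0 a negative interaction, against 5.63% and 0.825% of all genes, and all 17 arose. The median was 0.63. No gene of this list was called by limma at d0, where 6 had an unadjusted p under 0.05 (median 0.08). At d3 20 were higher, against 6.94% of all genes. The list fell during differentiation in both arms, with a median change of -2.73 with siCtrl and of -1.97 with siH19. *Actg2*, a smooth muscle actin, was listed at 66.8, 62.6 and 56.6 FPKM in siCtrl and at 74.5, 63.4 and 60.6 FPKM in siH19 at d0. It was listed at 8.4, 7.54 and 8.88 FPKM in siCtrl and 17.8, 20.8 and 21.2 FPKM in siH19 at d3, with overlapping libraries at d0 and separate ones at d3 (interaction 1.08, standard error 0.14, adjusted p = 0.0014). For *Myl9*, a myosin light chain, and *Cnn1*, calponin, replicate 3 of siCtrl d3 was nearer to siH19 than its fellows. *Myl9* was listed at 32.5, 28.3 and 56.3 FPKM in siCtrl and 84.3, 108 and 87.6 FPKM in siH19 at d3, and *Cnn1* at 13.6, 12.8 and 24.2 FPKM in siCtrl and 33.9, 39.8 and 42.9 FPKM in siH19. Their interactions of 1.18 (adjusted p = 0.029) and 1.15 (adjusted p = 0.031) were lost on leaving out several single libraries and under the replicate block. Either other scaling gave 16 positive calls for the list.

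Skeletal muscle markers had positive point estimates with siH19 on both days, in all 15 tested, with medians of 0.37 at d0 and 0.32 at d3. The summed FPKM of the 19 markers in the table lay at 505 to 819 in siCtrl and 665 to 936 in siH19 at d0, and at 375 to 399.9 and 465 to 649 at d3. The libraries overlapped at d0 and not at d3. None of the 15 tested had a called interaction in limma and 0 had an unadjusted p under 0.05 for it, their median was -0.07, and their part in the values of contractile genes was not tested. Pericytes are contractile themselves. The summed FPKM of their 10 markers was 183 to 202 in siCtrl and 170 to 185 in siH19 at d0. At d3 it was 103 to 119 in siCtrl and 123 to 142 in siH19. Of the 8 tested, limma called 1 lower at d0 and none at d3, where 2 had an unadjusted p under 0.05. A positive interaction was called for 2, against 5.63% of all genes, of which 1 faded and 1 had opposing trends.

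Some targets of the coactivator YAP and some genes of TGF-beta, BMP and Wnt signalling arose as well. These were 7 of 31 and 8 of 49 tested, while 3.56% of all genes arose. *Ctgf*, a matricellular protein and a YAP target, was listed at 2335, 2253 and 2362 FPKM in siCtrl and 2497, 2513 and 2505 FPKM in siH19 at d0. At d3 it was listed at 71.6, 57.3 and 86.5 FPKM in siCtrl and 175, 213 and 193 FPKM in siH19, a difference of 0.11 that became 1.44 (interaction 1.32, standard error 0.17, adjusted p = 0.0014). *Cyr61*, related to *Ctgf*, had an interaction of 0.92 (adjusted p = 0.00089). Of 31 YAP and TEAD targets, 8 were called positive and 1 negative (*Dock5*, -0.48), with a median of 0.33, against 5.63% and 0.825% of all genes. The positive count was 3 after either other scaling and 4 or 5 on leaving out any 1 of 7 libraries, the lowest without replicate 3 of siCtrl d0 or replicate 2 of siCtrl d3. Of 49 genes of TGF-beta, BMP and Wnt signalling, 15 were called positive and 0 negative, with a median of 0.37, against the same shares. Among the ligands, *Tgfb3* was listed at 6.41, 6.37 and 6.89 FPKM in siCtrl and 10.2, 11.3 and 10.5 FPKM in siH19 at d3 (interaction 0.62, adjusted p = 0.00097). The activin subunit *Inhbb* arose (interaction 1.08, adjusted p = 0.00094), whereas its relative *Inhba* was higher on both days and grew from 0.64 to 1.25 (interaction 0.61, adjusted p = 0.0057).

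Of 57 collagens and matrix genes tested, 19 had a positive interaction and 0 a negative one, with a median of 0.38, against 5.63% and 0.825% of all genes, and median-ratio scaling left 12. At d3 alone 21 genes of the list were higher and none lower, against 6.94% and 1.99%. *Lox*, which cross-links collagen, was listed at 287, 241 and 283 FPKM in siCtrl and 587, 558 and 545 FPKM in siH19 at d3 (interaction 0.83, adjusted p = 0.00062). *Thbs1*, thrombospondin 1, had an effect of 0.21 at d0 and 1.41 at d3, and *Postn*, periostin, of -0.13 and 0.69. The interaction was 1.2 (adjusted p = 0.0044) for *Thbs1* and 0.82 (adjusted p = 0.00089) for *Postn*. *Timp1*, an inhibitor of matrix proteases, was among the 16 of 41 angiogenic and matrix-remodelling genes called positive (interaction 0.84, adjusted p = 0.00062). The collagen gene *Col7a1*, which is not in the list, went the other way (-1.30, adjusted p = 0.047), a call lost on leaving out any 1 of 10 libraries.

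Part of the genes of adipocyte precursors stood higher with siH19 at d3, where 16 of 33 tested were called higher (6.94% of all genes). The interaction was called positive for 14 and negative for 0, with a median of 0.49, against 5.63% and 0.825% of all genes. The count was 9 after either other scaling and on leaving out 1 of 3 libraries (replicate 2 of siCtrl d0, replicate 2 of siCtrl d3 or replicate 3 of siH19 d0). *Ly6a*, the stem cell antigen SCA-1, was listed at 552, 579 and 499 FPKM in siCtrl and 657, 639 and 637 FPKM in siH19 at d0, and at 269, 239 and 248 FPKM in siCtrl and 459.6, 434 and 473 FPKM in siH19 at d3. The siH19 libraries were above all siCtrl libraries on both days, by 0.25 at d0 and 0.85 at d3 (interaction 0.60, adjusted p = 0.0022). *Sox9*, a transcription factor that holds back adipogenesis, was listed at 0.92, 0.835 and 1.01 FPKM in siCtrl and 1.7, 1.61 and 1.75 FPKM in siH19 at d3, after a lower level with siH19 at d0 (-0.32, under 1.3-fold). Its interaction was 0.81 (adjusted p = 0.00091). *Hmga2*, a chromatin protein of growing mesenchymal cells, was listed at 1.65, 1.3 and 1.9 FPKM in siCtrl and at 5.44, 6.68 and 5.09 FPKM in siH19 at d3 (interaction 1.22, adjusted p = 0.0012). *Dlk1*, which inhibits adipogenesis, was higher at d3 (0.66, adjusted p = 0.0093) without a called interaction (0.58, adjusted p = 0.11).

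Of 28 chemokines and cytokines, 10 were called positive and 2 negative, with a median of 0.32, against 5.63% and 0.825% of all genes. The median was 0.13 with no filter on low values and 0.64 with a pseudocount of 0.1, and on leaving out any 1 library at most 1 was called negative. *Ccl7*, which attracts monocytes, was listed at 126, 119.6 and 120.1 FPKM in siCtrl and 119, 114 and 127 FPKM in siH19 at d0. Its values at d3 were 8.01, 5.64 and 7.67 FPKM in siCtrl and 18.1, 19.2 and 16.8 FPKM in siH19, so that libraries that overlapped at d0 had separated (interaction 1.27, adjusted p = 0.00089). The neighbouring monocyte attractant *Ccl2* (1.13, adjusted p = 0.0052) and the neutrophil attractants *Cxcl1* (1.35, adjusted p = 0.016) and *Cxcl5* (0.79, adjusted p = 0.0088) did likewise. *Tslp*, a cytokine of stromal and epithelial cells, was higher on both days and grew from 0.85 to 1.76, from 46.9 ± 2.39 against 85.3 ± 4.89 FPKM at d0 to 2.75 ± 0.632 against 11.7 ± 1.89 FPKM at d3 (siCtrl against siH19, SD, n = 3).

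Of 54 cell cycle and DNA replication genes, 12 had a positive interaction, 9 of which had no called effect on either day, and the median was 0.30. This is set against 5.63% of all genes. The count was 6 after median-ratio scaling, 4 after quantile normalization, 7 under the replicate block and 7 on leaving out replicate 1 of siCtrl d0, of siH19 d0 or of siH19 d3, replicate 2 or 3 of siCtrl d3, or replicate 3 of siH19 d0. *Ccnd1*, cyclin D1, was listed at 28.5, 28.8 and 28.7 FPKM in siCtrl and 26.6, 25.4 and 26.8 FPKM in siH19 at d0, and at 12.1, 6.27 and 7.9 FPKM in siCtrl and 21.2, 18.7 and 19.2 FPKM in siH19 at d3. Its siH19 libraries passed from just below the siCtrl range at d0 to above it at d3 (interaction 1.25, adjusted p = 0.0079). *Cdk1*, the kinase that starts mitosis, had an interaction of 0.71 (adjusted p = 0.014).

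Of 33 interferon-stimulated genes tested, 5 had opposing trends, against 1.82% of all genes. The median effect of the list was -0.28 at d0 and 0.13 at d3 (0.08 and 0.065 after the other scalings). At d0 all 33 point estimates were negative and 1 gene was called lower, against 2.19% of all genes. In vWAT cells, where 42 genes of the list were tested, the median effect at d0 was 0.45. At d3 10 point estimates in BAT were negative and 1 gene was called higher, against 6.94% of all genes. The interaction was called positive for 6, against 5.63% of all genes, with a median of 0.34. This count was 3 after quantile normalization and without replicate 2 of siCtrl d3 or replicate 1 or 3 of siH19 d0. *Isg15*, a ubiquitin-like protein, was listed at 11.7, 15.8 and 11 FPKM in siCtrl and 7.42, 8.92 and 8.19 FPKM in siH19 at d0, and at 2.29, 1.4 and 1.95 FPKM in siCtrl and 4.39, 3.09 and 2.27 FPKM in siH19 at d3, where the libraries overlapped. Its interaction was 1.13 (adjusted p = 0.028), a call lost on leaving out any 1 of 5 libraries. Genes of the unfolded protein response and of the amino acid response factor ATF4 went opposite ways, 8 positive and 5 negative of 33, against 5.63% and 0.825% of all genes. The positive calls included chaperones and folding enzymes of the endoplasmic reticulum, such as *Pdia6* (0.49, adjusted p = 0.00066) and *Manf* (0.50, adjusted p = 0.0015). The negative calls included enzymes of amino acid synthesis, such as *Asns* (-0.54, adjusted p = 0.0039) and *Psat1* (-0.49, adjusted p = 0.0024), and the kinase-like regulator *Trib3* (-0.63, adjusted p = 0.013). After median-ratio scaling 3 of this list were positive and 5 negative, and its median changed sign (0.06 against -0.03).

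Imprinted genes, which are expressed from 1 parental allele, were described as lists of paternally (PEG) and maternally (MEG) expressed genes. Of 21 PEGs tested, 3 had a positive interaction and 0 a negative one, with a median of 0.27 (0.18 after median-ratio scaling, 0.17 after quantile normalization and 0.06 with no filter on low values). Of 28 MEGs tested, 1 had a positive interaction, with a median of 0.13 (0.06 and 0.03 after the other scalings). The share of all genes with a positive interaction was 5.63%. At d3 alone 5 PEGs were higher and 0 lower with siH19, with a median of 0.18. Of the MEGs 5 were higher and 2 lower at d3, with a median of 0.17. The shares of all genes at d3 were 6.94% higher and 1.99% lower, and the lists were not tested against each other. *Nnat*, a small membrane protein, had the largest reversal. It was listed at 27.8, 26.4 and 30.9 FPKM in siCtrl and 15.1, 17.6 and 16.9 FPKM in siH19 at d0, and at 11.1, 9.22 and 10.4 FPKM in siCtrl and 16.7, 17.9 and 18.5 FPKM in siH19 at d3. The siH19 libraries were below all siCtrl libraries at d0 (-0.74, adjusted p = 0.0014) and above all of them at d3 (0.73, adjusted p = 0.00022), an interaction of 1.48 (standard error 0.12, adjusted p = 0.00035). From d0 to d3 *Nnat* fell by 1.39 with siCtrl, whereas its change with siH19 was not called (0.09, 95% interval -0.10 to 0.28). *Dio3*, the deiodinase that inactivates thyroid hormone, was listed at 101, 77.9 and 86.9 FPKM in siCtrl and 80.1, 84.1 and 84.4 FPKM in siH19 at d0, and at 9, 8.41 and 10.8 FPKM in siCtrl and 18, 15.1 and 19.2 FPKM in siH19 at d3 (interaction 0.92, adjusted p = 0.0062). *Peg10* was listed at 2.79, 1.9 and 1.91 FPKM in siCtrl and 3.99, 4.2 and 3.57 FPKM in siH19 at d3, with overlapping libraries at d0, and its interaction of 0.62 (adjusted p = 0.026) was lost after either other scaling and on leaving out any 1 of 9 libraries. The MEG *Rian*, a non-coding RNA of the cluster that also holds *Dlk1* and *Dio3*, was listed at 30.5, 27 and 33.6 FPKM in siCtrl and 66.6, 56.4 and 64 FPKM in siH19 at d3 (interaction 0.74, adjusted p = 0.0049). *Igf2*, the neighbour of *H19*, had an effect of 0.08 at d0 and 0.44 at d3, neither called, and an interaction of 0.35 (95% interval -0.15 to 0.85). The interactions of *Igf2r* (-0.11), *Dcn* (0.22), *Cdkn1c* (0.12), *Peg3* (0.47), *Mest* (0.52) and *Plagl1* (-0.42) missed the threshold, with adjusted p-values of 0.44 for *Mest*, which was lower in every siH19 library at d0 (6.23, 14.8 and 8.65 against 17.8, 18.4 and 20.3 FPKM), and 0.15 for *Peg3*.

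**Figure D4:**
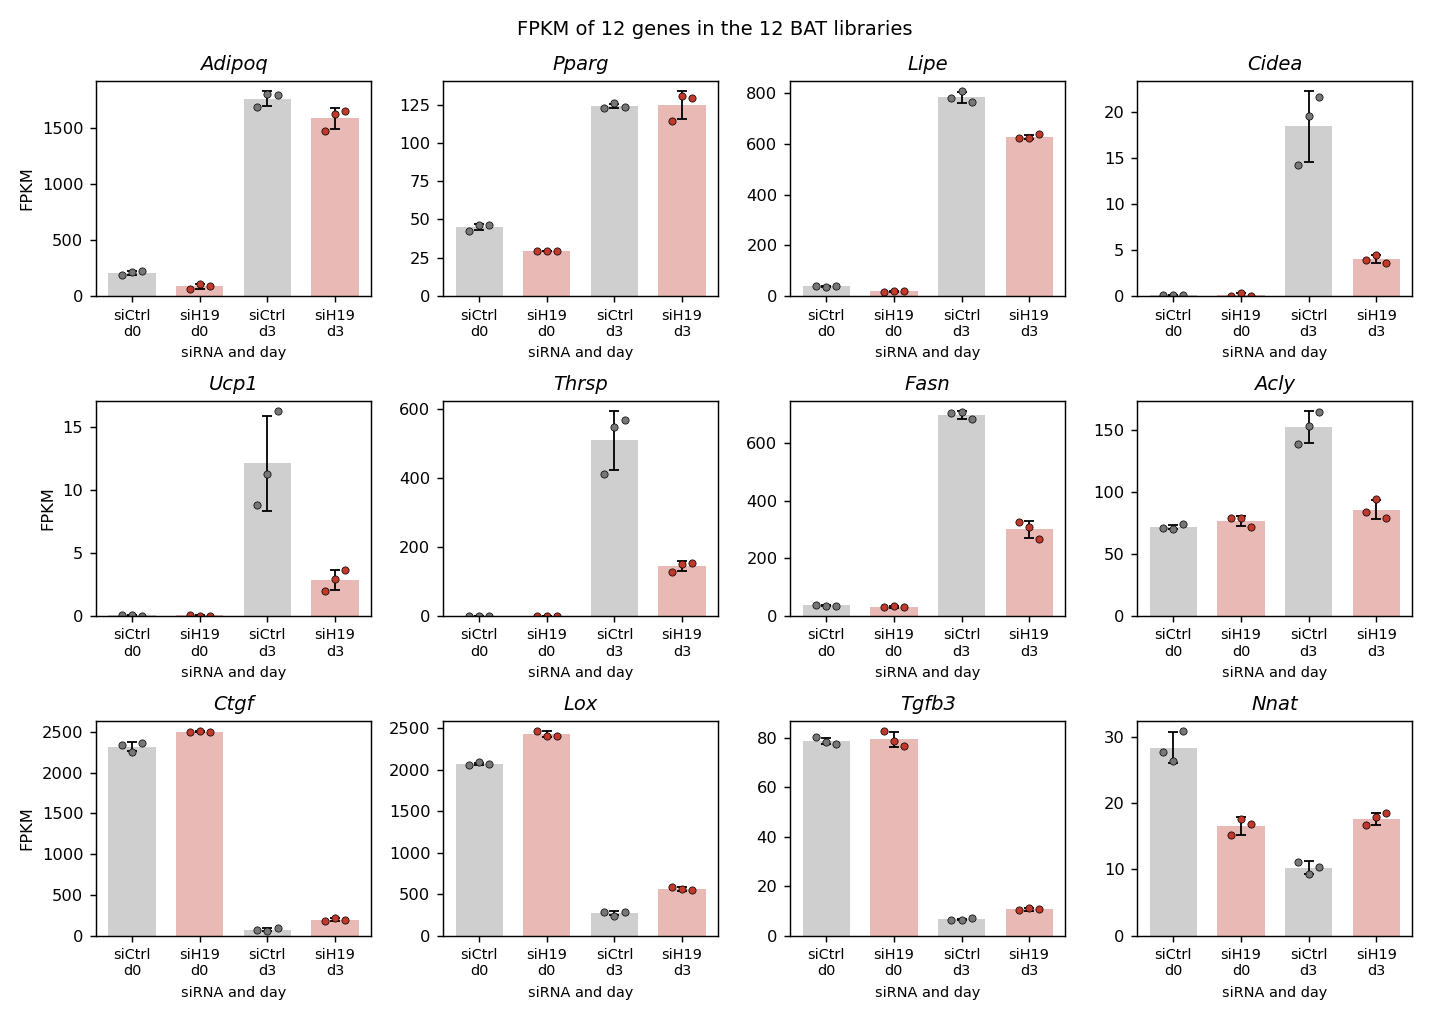
FPKM (y axis, linear from 0, own scale per gene) of 12 genes in the 12 BAT libraries by siRNA and day (x axis). Points are libraries, bars are means and error bars are SD (n = 3). *Adipoq*, *Pparg* and *Lipe* separate most, in proportion, at d0, while *Fasn*, *Acly*, *Ctgf*, *Lox* and *Tgfb3* separate more, in proportion, at d3, *Cidea*, *Ucp1* and *Thrsp* are next to 0 at d0, and *Nnat* changes direction.

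Of the other genes that reversed, all were lower with siH19 at d0 and higher at d3. *Serpina3n*, a secreted protease inhibitor, went from -0.42 to 0.77 (interaction 1.19, adjusted p = 0.00081). The secreted serine proteases *Htra1* (0.93, adjusted p = 0.0056) and *Htra3* (0.93, adjusted p = 0.0014) and the gene *Fam102b* (0.83, adjusted p = 0.0042) did the same. Leaving out replicate 3 of siCtrl d0 left 1 reversed gene.

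The 73 effects carried over from before induction include fat cell and macrophage genes. *Cfd*, adipsin, was listed at 207, 227 and 244 FPKM in siCtrl and 50.2, 89.2 and 83.1 FPKM in siH19 at d0, and at 14.6, 17.2 and 16.5 FPKM in siCtrl and 7.68, 9.93 and 8.58 FPKM in siH19 at d3. *Adrb3*, the adrenergic receptor that activates brown fat, was listed at 11.8, 12.8 and 15.5 FPKM in siCtrl and 4.21, 6.1 and 5.96 FPKM in siH19 at d0 and at 38.8, 44.2 and 46.4 FPKM in siCtrl and 29.1, 29.4 and 30.9 FPKM in siH19 at d3. Both were lower in every siH19 library on both days, and the interactions of 0.82 (adjusted p = 0.08) and 0.65 (adjusted p = 0.051) missed the threshold, so it is not settled that their effects persisted in full. Higher on both days were *Hbegf*, a growth factor of the EGF family (0.91 and 0.78, interaction -0.14, 95% interval -0.38 to 0.11), and *Olr1*, a scavenger receptor (0.98 and 0.83, interaction -0.15, 95% interval -0.73 to 0.43).

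Several macrophage markers were lower with siH19 on both days. The complement gene *C1qa* was listed at 4.32, 5 and 4.04 FPKM in siCtrl and 2.31, 1.63 and 1.18 FPKM in siH19 at d0, and at 8.37, 9.04 and 7.83 FPKM in siCtrl and 4.33, 2.66 and 3.66 FPKM in siH19 at d3, an effect of -1.03 and -1.06 (interaction -0.03, 95% interval -0.55 to 0.49). Of 14 macrophage markers tested, 5 were lower at d0 and 7 at d3 (2.19% and 1.99% of all genes), 5 were carried over and none had a called interaction in limma, where 0 had an unadjusted p under 0.05 (median -0.06). The summed FPKM of all 18 was 175 to 219.7 in siCtrl and 128 to 136 in siH19 at d0, and 166 to 202 and 98.5 to 115 at d3, without overlap on either day. Leaving out 1 library left 3 at d0 (replicate 2 or 3 of siCtrl d0 or replicate 3 of siH19 d0) and 4 at d3 (replicate 3 of siCtrl d3 or of siH19 d3). The part of these cells in the other results was not tested. Endothelial markers (7 tested), mesothelial markers (1) and Schwann cell markers (3) had no called interaction in limma, with 0 in each list at an unadjusted p under 0.05, and no lymphocyte marker reached the filter. The summed FPKM of the endothelial markers overlapped between siRNAs on both days, at 37.4 to 40.6 and 32.6 to 46.4 at d0 and at 36.6 to 43.5 and 34.7 to 40.9 at d3, siCtrl first. The mesothelial sum was higher with siH19 on both days, at 5.17 to 5.96 and 8.42 to 10.1 at d0 and at 1.37 to 3.5 and 3.55 to 4.26 at d3. This sum was mostly *Krt19*, the 1 marker tested, which reached 9.61 FPKM. No other mesothelial marker exceeded 0.632 FPKM in any library, so the sum describes *Krt19* and not the cell type.

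White adipocyte markers (21 genes) had 5 positive and 2 negative interactions with a median of 0.24, and lipid droplet and lipolysis genes (21 genes) 5 and 2 with a median of 0.27, against 5.63% positive and 0.825% negative of all genes. White adipocyte markers had 1 negative call on leaving out any 1 library but replicate 1 of siCtrl d3 or replicate 2 of siH19 d3. Of the lipid droplet list 2 were called positive after median-ratio scaling, 1 was called positive without replicate 3 of siCtrl d0, and 2 or 3 without replicate 1 or 2 of siCtrl d3 or of siH19 d3. Glucocorticoid-responsive genes (21 genes) had 4 positive calls and 1 positive call after either other scaling, and 2 on leaving out any 1 of 5 libraries (replicate 2 or 3 of siCtrl d0, 2 of siCtrl d3, 2 of siH19 d0 or 1 of siH19 d3). Triglyceride synthesis (14 genes, median 0.09, 2 positive and 1 negative), cholesterol synthesis (27 genes, median 0.00, 1 and 2) and NRF2 targets (median 0.05) had medians that changed sign under another scaling. *Cyp51*, an enzyme of cholesterol synthesis, had the largest called value of its list (-0.98, adjusted p = 0.0015).

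Promoters were read because the contractile genes moved together. RefSeq promoters (GRCm38.p6, the 250 bases before the start) could be matched for 305 of the 419 genes that arose higher and for 9640 of the genes tested. The CArG box, the element that SRF binds, was searched on both strands. It was found in 10 of the 305 (3.28%), in 140 of the 9640 (1.45%) and in 439 of all 27025 promoters (1.62%). It was found in none of the 44 matched genes that arose lower, nor in the 72 that faded from a lower level. The motif GGAATG, bound by TEAD factors, was found in 15.41% of the 305 and in 12.8% of the genes tested. In the contractile list the CArG box was found in 6 of 25 promoters and GGAATG in 11, and among YAP and TEAD targets in 0 and 9 of 24, but both lists were compiled in part as targets of these factors. Of the 10 matches, those of *Myl9*, *Cnn2* and *Filip1l* belong to contractile genes called positive, and they are shown with the box in capitals, in the direction of the gene.
Myl9: caagcagaggCCTAATAAGGccgggctggc
Cnn2: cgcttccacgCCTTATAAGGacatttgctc
Filip1l: atgccgcgcgCCTTATAAGGctgagcggtg
They lie at chr2:156775293-156775322, chr10:79988534-79988563 and chr16:57549170-57549199, each on the plus strand. *Cnn2*, a calponin, and *Filip1l*, which were chosen for this match, had interactions of 0.97 (adjusted p = 0.0039) and 0.63 (adjusted p = 0.031). A match of letters is a description of the promoter and does not show that a factor was bound.

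The same interaction was fitted in vWAT cells, and the difference between depots was tested on all 24 libraries. In vWAT cells 189 of 13948 genes (1.36%) had a called interaction, 158 positive (1.13%) and 31 negative (0.222%). The siH19 effect in vWAT cells was called for 337 genes (2.42%) at d0, 81 higher (0.581%) and 256 lower (1.84%), and for 6 genes (0.043%) at d3. The depot by day by siRNA interaction was called for 866 of 14694 genes (5.89%), 657 higher in BAT (4.47%) and 209 lower (1.42%), and for 502 and 320 after median-ratio scaling. *H19* was part of it, with a log2 value of -0.12 for the interaction in vWAT cells and a difference between depots of 2.11 (adjusted p = 0.0044). The depots also differ in their induction medium and their later medium, which cannot be told apart from the depot.

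Many general adipocyte genes were lower with siH19 at d0 in both depots. Of the 56 common adipogenic genes, 30 were lower and 1 higher in vWAT cells at d0, none was called by limma at d3 (14 had an unadjusted p under 0.05), and 28 had a positive and 1 a negative interaction. The difference between depots was 0.39 for *Adipoq* (95% interval -0.09 to 0.86), -0.17 for *Fabp4* (-0.50 to 0.17) and -0.10 for *Pparg* (-0.36 to 0.16), none of them called. These intervals do not show that the depots act alike, but no difference was detected for these genes. The list as a whole had 2 genes higher and 14 lower in BAT, with a median of -0.17.

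For several other lists more genes differed between depots than the shares of all genes given above. De novo lipogenesis had 10 of 19 genes lower in BAT and 0 higher, with a median of -0.64. The median interaction of that list was -0.27 in BAT and 0.18 in vWAT cells. *Fasn* was listed at 407 ± 12.9 FPKM in siCtrl and 305 ± 20.2 FPKM in siH19 in vWAT cells at d3 (SD, n = 3), and its difference between depots was -1.12 (adjusted p = 0.0045). OxPhos subunits had 14 of 78 lower in BAT, with a median of -0.32, although only 1 was called within BAT. The median interaction of that list was -0.13 in BAT and 0.19 in vWAT cells, where the median effect at d0 was -0.11. The TCA cycle had 11 of 31 lower, with medians of -0.13 in BAT and 0.24 in vWAT cells (-0.23 at d0), and BAT markers 11 of 37. Of these 37 markers 30 reached the filter within the vWAT libraries. For a marker next to 0 in vWAT cells, the added 1 holds its vWAT interaction near 0. Contractile genes had 19 of 30 higher in BAT and 0 lower, with a median of 0.70, collagens and matrix genes 17 of 57, and TGF-beta, BMP and Wnt genes 16 of 53. *Ctgf* was listed at 45.5 ± 8.31 FPKM in siCtrl and 48.2 ± 6.42 FPKM in siH19 in vWAT cells at d3 (SD, n = 3), and its difference between depots was 1.81 (adjusted p = 0.00041). Among imprinted genes, *Nnat* (1.41, adjusted p = 0.0087), *Dio3* (0.98, adjusted p = 0.0067) and *Rian* (0.74, adjusted p = 0.011) differed between depots, and for *Peg10* the difference of 0.67 was not called (adjusted p = 0.055).

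**Figure D5:**
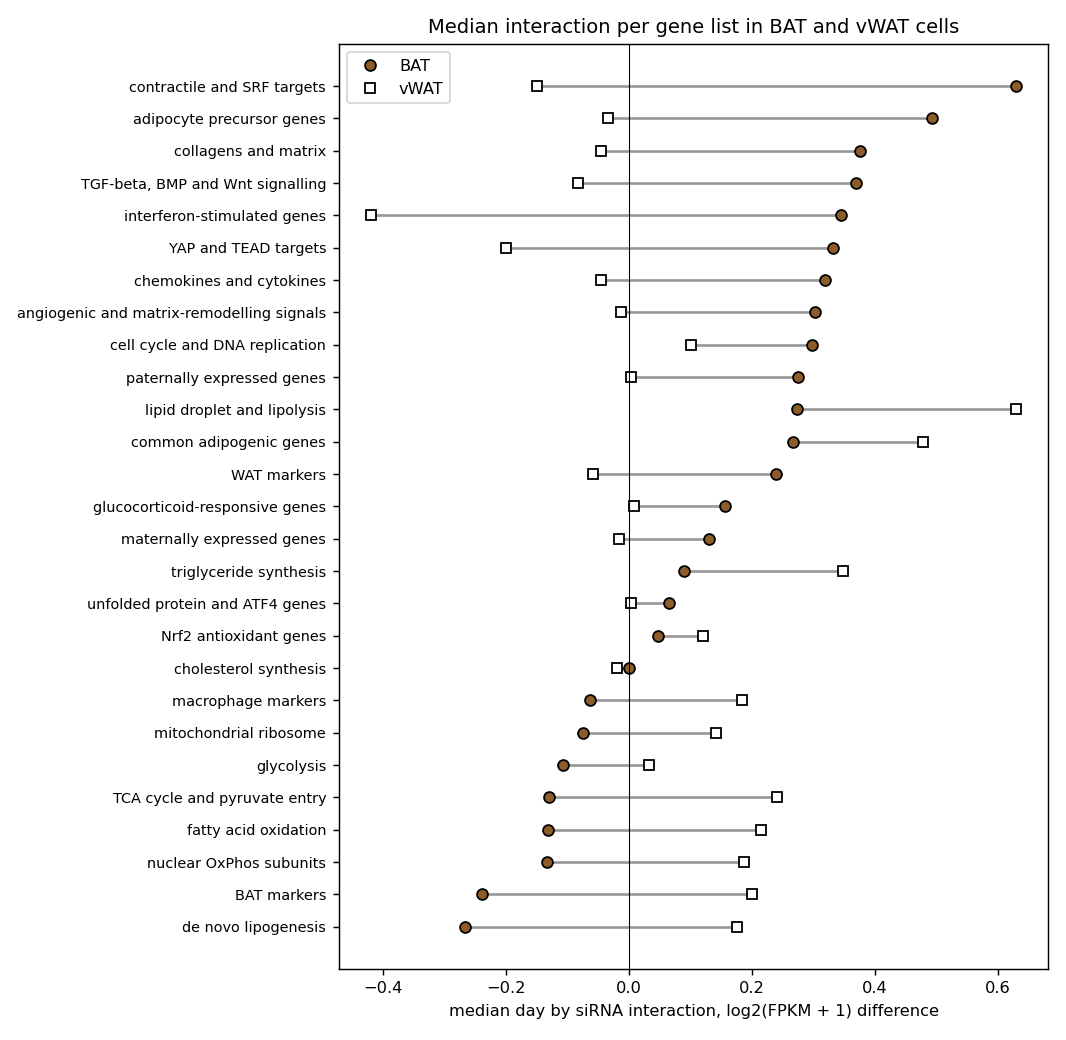
Median day by siRNA interaction per gene list in BAT (filled circles) and vWAT cells (open squares), as a difference on log2(FPKM + 1) (x axis), for the lists with at least 14 genes tested in BAT cells, skeletal muscle markers left out. Common adipogenic genes lie above 0 in both depots (0.27 and 0.48), while de novo lipogenesis (-0.27 and 0.18) and contractile genes (0.63 and -0.15) lie on opposite sides of 0.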

How the data were processed

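RNA from 24 libraries was sequenced by the authors. The deposited table holds values that were read as FPKM, since the sources used here give no unit for it. The submitters' processing notes name TopHat2 2.0.10, STAR, Cufflinks 2.2.1, DESeq2, FastQC 0.10.1, R 3.2.2 and GRCm38.p5 without their roles. No counts were used, so depth enters only as a relative value. Genes that reached an FPKM of 1 in 3 or more of the 12 BAT libraries were kept, and log2(FPKM + 1) was fitted with limma 3.58.1 (R 4.3.3), with 1 mean per group and a mean-variance trend. Called means a Benjamini-Hochberg adjusted p under 0.05 over all genes tested and at least 1.3-fold. Intervals are 95% and unadjusted. vWAT cells were fitted alone and the depot difference on all 24 libraries. The fits were tested on simulated data. Gene lists were described by counts and medians. Named genes were *H19*, genes named by the study, the 15 largest called interactions each way, the 3 largest per list each way, the 8 largest per timing class and the 8 largest depot differences each way, passing over model genes, small RNAs and ranked genes under a mean of 5 FPKM in all groups. *Scd1*, *Mlxipl*, *Cnn2* and *Filip1l* were chosen after their values were seen. Some genes that the rule names are not reported here. The rule, lists and names were chosen with earlier results of these data known. Alternatives were another pseudocount, filters, scalings (median ratio, quantile), no trend, a replicate block, the spread of 24 libraries, other thresholds and leaving out each library.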

Additional observations from a re-analysis of the deposited data

Results flagged for a closer look

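The day by siRNA interaction differed between BAT and vWAT cells for 866 of 14694 genes by the depot by day by siRNA term fitted on all 24 libraries, and the genes with the largest such differences on log2(FPKM + 1) are given here, each as BAT minus vWAT. Such a difference can lie in the BAT cells, in the vWAT cells or in both. The induction medium and the later medium differ between depots and cannot be told apart from the depot.

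Lower in BAT were the thermogenic and lipid genes *Cidea* (-1.95, adjusted p = 0.00015), *Thrsp* (-1.92, adjusted p = 0.00015) and *Ucp1* (-1.75, adjusted p = 0.0014). For *Cidea* and *Ucp1* these values nearly equal the interactions within BAT (-1.96 and -1.75), so their vWAT interactions were near 0. A gene next to 0 in vWAT cells can hardly show an interaction there on log2(FPKM + 1), and the vWAT levels of these genes are not given here. The drug-metabolising enzyme *Cyp2e1* was listed in BAT cells at d3 at 8.48, 10.8 and 9.13 FPKM in siCtrl and 2.22, 4.34 and 4.48 FPKM in siH19 (difference between depots -1.83, adjusted p = 0.00072). *Lyrm9* was listed at 14.8, 12.1 and 17.1 FPKM in siCtrl and 6, 6.21 and 7.46 FPKM in siH19 in BAT cells at d3 (difference -2.01, adjusted p = 0.014). The cytokine gene *Il11* differed by -1.85 (adjusted p = 0.0073), with an interaction of -0.89 within BAT. For *Plbd1*, a phospholipase-like gene, and *Ighm*, the immunoglobulin mu chain, the interaction within BAT was not called (-1.04 and -0.06), and the differences were -1.72 (adjusted p = 0.035) and -1.69 (adjusted p = 0.012). The difference of *Ighm* thus lies almost wholly in the vWAT cells.

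Higher in BAT were *Ctgf* (1.81, adjusted p = 0.00041), the calponin gene *Cnn1* (1.53, adjusted p = 0.047), the chemokine gene *Cxcl5* (1.53, adjusted p = 0.00038) and *H19* itself (2.11, adjusted p = 0.0044). Genes that respond to inflammation or interferon were also in this group, with differences of 2.11 (adjusted p = 0.038) for *Isg15*, 2.00 (adjusted p = 0.049) for *Zbp1* and 1.68 (adjusted p = 0.0018) for *Serpina3g*. Within BAT the interaction was 1.13 for *Isg15* and 1.27 for *Serpina3g*. The interaction within BAT was not called for *Zbp1* (0.99, adjusted p = 0.16). The same holds for *Aldh16a1*, an aldehyde dehydrogenase gene with exons that overlap *Pih1d1* on the other strand (0.91 within BAT, difference 1.92, adjusted p = 0.028).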

How the results depend on the processing

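Of 118 named genes with a called interaction, *H19* left out, 78 were called under each of 23 alternatives, 32 lost the call under at least 3, and *Pck1* (0.56) and *Tnfsf15*, a cytokine of the TNF family (0.30), changed sign with a pseudocount of 0.1. The unknown number of fragments limits genes near 0. Counts outside 1.5 times the reported ones follow, and the cause was not tested except that fewer or more genes pass by construction where a threshold was dropped. An unadjusted p gave 1705 interactions, 799 effects at d0, 836 interactions in vWAT cells and 2022 differences between depots. It gave 809 arising, 126 carried over, 20 grown, 6 shrunk, 326 faded, 22 reversed and 522 opposing genes. Without the minimum fold there were 724 effects at d0, 2600 at d3, 856 arising, 198 carried over, 33 grown, 10 shrunk, 51 reversed and 94 opposing genes. Median-ratio scaling gave 84 faded, 5 grown and 159 opposing genes. No filter on low values gave 3 grown and 3 reversed genes, a pseudocount of 0.1 gave 5 shrunk genes, and the spread of all 24 libraries gave 14 grown, 6 shrunk, 197 faded and 11 reversed genes.

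Leaving out 1 library gave 621 (without replicate 2 of siCtrl d3) to 830 interactions, 210 (without replicate 3 of siCtrl d0) to 385 effects at d0, 913 to 1226 at d3, and 8426 to 8678 and 7940 to 8111 changes with day in siCtrl and siH19. The classes held 368 to 504 arising, 42 to 71 carried over, 3 to 10 grown, 2 to 8 shrunk, 69 to 143 faded, 1 to 9 reversed and 150 to 206 opposing genes. Replicate 3 of siCtrl d0 gave the lowest count of carried over, shrunk, faded and reversed genes, and replicate 2 of siH19 d0 the lowest of grown and the highest of shrunk (8) and reversed genes (9). Replicate 1 of siH19 d0 gave 44 carried over genes, and replicate 2 of siCtrl d3 gave 150 opposing ones. In vWAT cells the range was 113 (without replicate 1 of siH19 d3) to 192, with 122 without replicate 3 of siCtrl d3, between depots 673 to 916, and for the *H19* interaction 1.76 to 2.12.

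Across all genes tested, libraries with the same number did not deviate together (18 pairs of libraries, residual r of -0.15 to 0.10). With 3 libraries per group this cannot settle whether libraries of the same number share a culture or preparation. With a replicate block 768 interactions were called, 671 positive and 97 negative, 5 genes shrank, 7 cell cycle genes were called, and macrophage markers called at d0 went from 5 to 3.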
